A study of Mus musculus with 12 samples.

Results

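The carbonic anhydrase genes examined here were 8 members of the mouse family, Car2, Car5b, Car6, Car8, Car9, Car12, Car13 and Car14, out of 19937 genes named on the arrays. Each was taken from the probe set whose only gene symbol in the platform annotation was that member, and each member had 1 such probe set. Car6 and Car9 were chosen by their expression values, because these differed between the FL line and the mutant lines, and the other 6 belong to the same family. Their values are therefore a description with no test in any comparison, since every comparison shares arrays with that choice. The other 6 members were tested in a fit over all 34760 probe sets. They too were listed with earlier results of these data known, and 8 further family genes are counted apart below.

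The RNA was from mouse mammary carcinoma cells, 4T1 (genetic background labelled BALB/cfC3H), in the form of 4 stable lines with 3 arrays each, 12 in all. The lines are named control, FL, mutB1 and ΔSAP, and the series title ties them to megakaryoblastic leukemia-1 (Mkl1, now Mrtfa), which senses actin and works with serum response factor to switch genes on. The names are taken to mean full-length Mkl1 for FL, a B1-region mutant impaired in binding serum response factor for mutB1, and loss of the SAP domain, a putative DNA-binding motif, for ΔSAP. The labels do not spell these out. All lines, control included, were kept in 0.03% serum for 48 h before RNA extraction. The sources used here do not give the promoter that drives the constructs or say whether a line is 1 clone or a pool. Each construct is represented by 1 line, so a difference between constructs cannot be told apart from a difference between lines, and the p-values measure the spread between arrays of a line.

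Carbonic anhydrases are zinc enzymes that interconvert carbon dioxide and bicarbonate, releasing or taking up a proton. The family is divided by where the enzyme works: Car2 and Car13 in the cytosol, Car5b in mitochondria, Car6 in secretions such as saliva and milk, and Car9, Car12 and Car14 at the cell membrane with the active site outside the cell. Car8 lacks a zinc ligand and has no known catalytic activity. In tumours Car9 is best known as a gene switched on by hypoxia-inducible factor (HIF), and Car12 as a gene of luminal breast cells that responds to oestrogen. Both help tumour cells to move acid out of the cytoplasm, working beside bicarbonate transporters.

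Among the members whose RNA varied most between lines, the window of 250 bases upstream of the annotated start is shown because the study asks which genes answer to a transcription coactivator. Sequences are from RefSeq, build GRCm38.p6, 5′ to 3′ on the strand of the gene, and 5 of the 8 members had a window in the table used. Capitals mark matches, on either strand, to ACGTG or GCGTG, the core forms of the element bound by HIF, and to TGANTCA, the AP-1 element. Windows lie at chr4:43506776-43507025 for Car9 (plus strand), chr4:150201136-150201385 for Car6 (minus strand), chr9:66713436-66713685 for Car12 (plus strand) and chrX:164028011-164028260 for Car5b (minus strand).
Car9: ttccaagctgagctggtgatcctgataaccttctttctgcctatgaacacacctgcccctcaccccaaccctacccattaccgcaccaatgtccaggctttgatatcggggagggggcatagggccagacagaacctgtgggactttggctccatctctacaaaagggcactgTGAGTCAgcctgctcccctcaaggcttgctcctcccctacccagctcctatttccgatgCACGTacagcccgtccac
Car6: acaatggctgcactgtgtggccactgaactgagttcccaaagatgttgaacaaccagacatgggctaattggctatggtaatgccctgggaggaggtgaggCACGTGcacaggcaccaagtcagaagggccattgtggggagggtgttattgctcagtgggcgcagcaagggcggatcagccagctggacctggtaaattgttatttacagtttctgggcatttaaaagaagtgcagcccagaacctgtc
Car12: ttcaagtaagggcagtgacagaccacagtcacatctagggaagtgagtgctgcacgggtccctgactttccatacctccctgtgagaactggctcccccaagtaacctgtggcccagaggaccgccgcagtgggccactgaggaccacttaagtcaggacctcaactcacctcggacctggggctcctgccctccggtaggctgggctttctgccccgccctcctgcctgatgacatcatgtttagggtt
Car5b: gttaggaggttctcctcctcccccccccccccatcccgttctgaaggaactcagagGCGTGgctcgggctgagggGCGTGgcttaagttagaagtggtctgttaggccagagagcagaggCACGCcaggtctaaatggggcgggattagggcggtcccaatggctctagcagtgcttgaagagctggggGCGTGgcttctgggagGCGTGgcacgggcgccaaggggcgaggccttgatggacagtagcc

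The Car9 window held 1 ACGTG on the reverse strand, 18 to 14 bases before the start. It also held 1 stretch matching TGANTCA, 77 to 71 bases before the start. Its letters are TGAGTCA, and their reverse complement TGACTCA fits the same pattern. In Car6 the letters CACGTG gave overlapping matches to ACGTG on both strands. Car5b held 5 matches to GCGTG and none to the other motifs, and Car12 held no match to any motif searched. The fifth window, of Car14, held 1 ACGTG 7 to 3 bases before the start. Over all 32851 windows of this length, 16.6% held ACGTG, 28.2% GCGTG and 6.75% TGANTCA. The CArG box, the element bound by serum response factor, was searched on both strands too and was present in 0 of the 5 member windows and in 1.47% of all windows. A match is a stretch of letters and not a measured site, and a missing match says only that the letters are not in this window.

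All levels below are log2 expression values of a probe set. Array medians ran from 6.35 to 6.45, and arrays of the same line had r = 0.995 to 0.997 over probe sets. Mkl1 itself stood at 9.27 in control cells, 12.08 in FL, 11.29 in mutB1 and 11.92 in ΔSAP, with mutB1 the lowest of the construct lines. The values carry no detection call. As a measure of background, 1035 probe sets for olfactory receptors, which mammary cells are not known to use, had a median of 4.17 and a 95th percentile of 5.85, and a line mean at or under 5.85 is called low. Of 12 epithelial markers, 11 were above that level in control and FL and 10 in mutB1 and ΔSAP, and the leukocyte marker Ptprc and the endothelial marker Pecam1 were low in every line. Above it in control and FL were also 8 of 10 fibroblast markers. The same lines had 3 of 9 leukocyte, 3 of 8 endothelial, 3 of 7 erythroid and 2 of 6 adipocyte markers above it. In control they included the fibroblast marker Pdgfra (10.76), the leukocyte markers Cd68 (8.91) and Cd14 (9.44) and the endothelial marker Eng (11.34). RNA was taken from whole cultures, so fewer cells with a transcript and less of it per cell cannot be told apart.

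Of the 8 members, 3 were low in every line (Car2, Car8 and Car14), Car6 was low in control and mutB1, and Car5b, Car9, Car12 and Car13 were above the low level in all lines. The members that differed by more than 2-fold between some pair of lines were Car5b, Car6, Car9 and Car12. In the F test over the lines, 3 of the 6 tested members passed an adjusted p of 0.01 (Car5b, Car12 and Car13), against 27.7% of all probe sets.

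**Figure D1:**
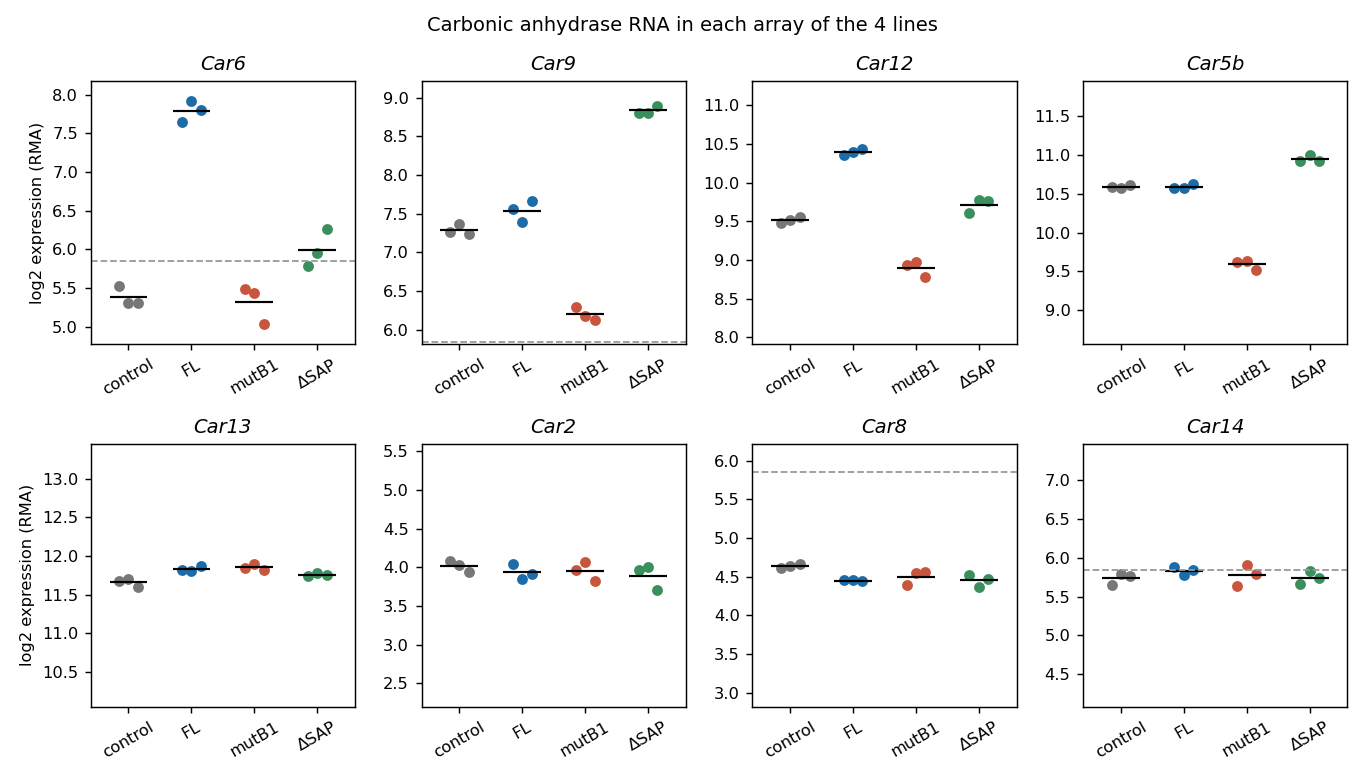
Each point is 1 array and each bar the mean of 3 arrays, on the log2 scale, for 8 genes in the control, FL, mutB1 and ΔSAP lines. Every panel spans the same number of log2 units around its own centre, so heights cannot be compared between panels. The dashed line is the low level of 5.85, drawn where it falls within the panel. Car6 is high in FL, Car9 and Car5b are high in ΔSAP and low in mutB1, Car12 is high in FL and low in mutB1, and the lower panels are nearly flat.

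Car9, a membrane enzyme facing outward, was highest in the ΔSAP line and lowest in the mutB1 line. Its values were 8.80, 8.81 and 8.89 in the ΔSAP arrays and 7.56, 7.40 and 7.66 in the FL arrays. The control arrays gave 7.26, 7.37 and 7.24, and the mutB1 arrays 6.30, 6.18 and 6.13. No line overlapped another, though the highest control array (7.37) and the lowest FL array (7.40) nearly met. FL lay 1.34 ± 0.07 (log2, SE, n = 3 arrays per line) above mutB1, a 2.53-fold difference, and the change from ΔSAP to FL was -1.29 ± 0.07. Across the extremes, ΔSAP was 6.20-fold higher than mutB1. Relative to control, mutB1 was 2.12-fold lower, ΔSAP 2.92-fold higher and FL 1.19-fold higher. The mutB1 mean of 6.20 was close to the low level.

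Car6, the secreted member, was highest in FL. The FL arrays gave 7.65, 7.91 and 7.80. Control read 5.52, 5.31 and 5.31, and mutB1 5.49, 5.44 and 5.04, both low and overlapping each other. ΔSAP lay between, at 5.78, 5.95 and 6.26, around the low level and above every control and mutB1 array. FL exceeded mutB1 by 2.47 ± 0.15 (log2, SE), ΔSAP by 1.79 ± 0.15 and control by 2.41 ± 0.15, which are 5.52-fold, 3.46-fold and 5.31-fold differences measured against low or nearly low means. As both mutB1 and control were low, their difference of -0.06 shows no order, and the differences of FL from them may be larger than measured.

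Car12, the other outward-facing membrane enzyme above the low level, was also highest in FL, and it fell below control in mutB1. The FL arrays read 10.36, 10.39 and 10.44, and the mutB1 arrays 8.93, 8.97 and 8.79. Control gave 9.48, 9.52 and 9.55, and ΔSAP gave 9.60, 9.78 and 9.76. The ranges of the lines did not overlap. FL was 2.82-fold higher than mutB1 (1.50 ± 0.06, SE, limma adjusted p = 5.48e-08) and 1.60-fold higher than ΔSAP (0.68 ± 0.06, limma adjusted p = 3.86e-05). Against control, FL rose by 0.88 ± 0.06 (limma adjusted p = 1.98e-06), and mutB1 fell by 0.62 on the log2 scale (limma adjusted p = 4.16e-05). ΔSAP and control were neighbours that did not pass the threshold, with a difference of 0.19 (95% interval 0.06 to 0.33, limma adjusted p = 0.0453).

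Car5b, the mitochondrial member, was highest in ΔSAP and lowest in mutB1, as Car9 was, over a smaller range. The ΔSAP arrays gave 10.92, 11.00 and 10.93, and the mutB1 arrays 9.62, 9.63 and 9.51. FL (10.58, 10.57 and 10.63) and control (10.58, 10.58 and 10.61) overlapped. Their difference was 0.0017 (95% interval -0.09 to 0.10, limma adjusted p = 0.986). FL was 2.01-fold higher than mutB1 (1.00 ± 0.04, SE, limma adjusted p = 7.55e-08), and the change from ΔSAP to FL was -0.36 ± 0.04 (limma adjusted p = 0.000236). Compared with control, mutB1 fell by 1.00 on the log2 scale (limma adjusted p = 7.13e-08), and ΔSAP rose by 0.36 ± 0.04 (limma adjusted p = 0.000144). Between ΔSAP and mutB1 the difference reached 1.36 ± 0.04 (limma adjusted p = 7.03e-09).

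**Figure D2:**
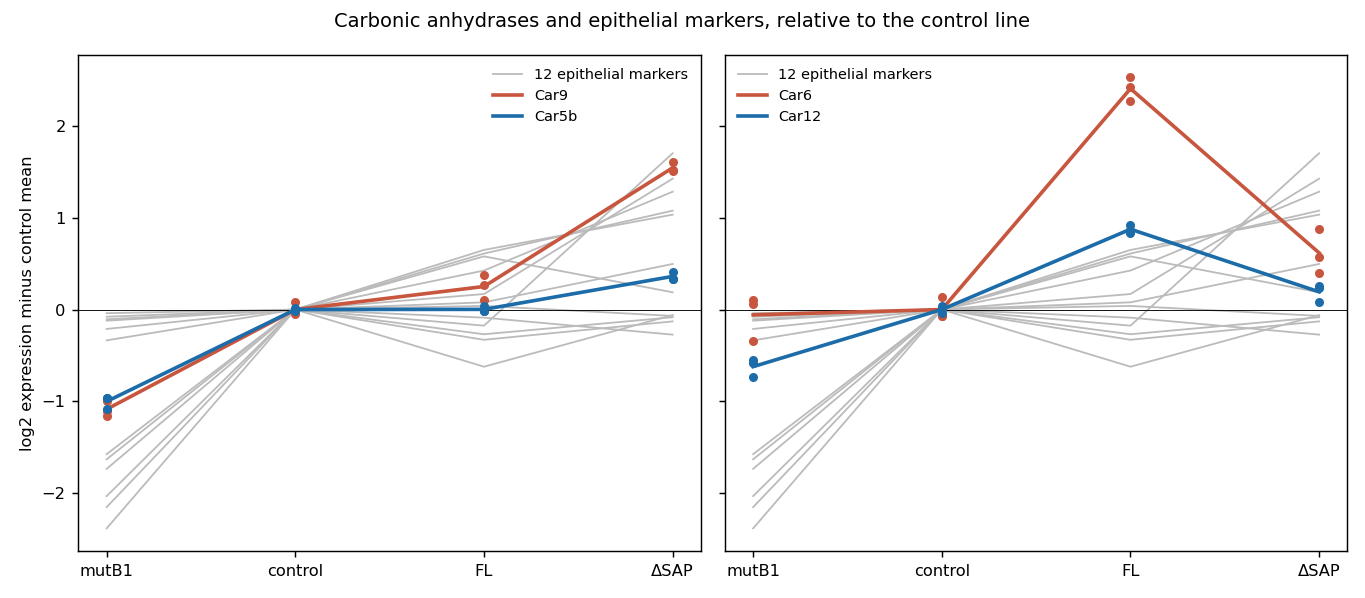
Line means minus the control mean, in log2 units, with the lines ordered mutB1, control, FL and ΔSAP. Colours show Car9 and Car5b (left) and Car6 and Car12 (right) with each array as a point, and grey shows 12 epithelial markers. Segments only join values of 1 gene, since the lines have no natural order. Car9 and Car5b are lowest in mutB1 and highest in ΔSAP, as 6 of the markers are, whereas Car6 and Car12 are highest in FL.

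Of 12 epithelial markers, 6 were lowest in mutB1 and highest in ΔSAP, as Car9 and Car5b were. So were 2 of 6 adipocyte markers, of which 0 passed between these lines. It was 0 for the fibroblast, leukocyte, erythroid and endothelial lists. The share of all genes with these extremes was not counted. The mean log2 value over the 12 markers was 8.37 to 8.42 in the mutB1 arrays, 9.40 to 9.46 in control, 9.49 to 9.54 in FL and 9.98 in ΔSAP. The 6 were Krt7, Krt19, Cdh1, Epcam, Cldn4 and Dsp, of which 5 had the whole order of lines of Car9. E-cadherin (Cdh1), for example, stood at 8.08 in mutB1, 9.65 in control, 10.30 in FL and 10.69 in ΔSAP. The other epithelial markers had other patterns. Krt8, Krt18 and Jup were highest in control and lowest in FL, with Jup at 12.52 in control, 12.46 in ΔSAP, 12.18 in mutB1 and 11.90 in FL. Krt14 was highest in FL, and Krt5 and Cldn7 passed in no comparison. In the opposite direction to Car9, Pdgfrb, a receptor of mesenchymal cells, stood at 10.29 in mutB1 and at 6.85 in control, 6.33 in FL and 5.92 in ΔSAP. The mean over 10 fibroblast markers was 7.11 to 7.16 in the mutB1 arrays and 6.28 to 6.60 in the arrays of the other lines. In mutB1 against control, 2 of the 10 rose and 0 fell (12.7% of all probe sets passed), with a median of -0.0091, and they were Pdgfrb and Fbln1, a matrix protein gene. Fbln1 stood at 9.60 in mutB1, 8.06 in ΔSAP, 7.98 in FL and 6.99 in control, where it was lowest. The part of these differences in the Car9 and Car5b values was not tested.

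Car13, a cytosolic enzyme, was far above the low level and nearly level between lines. Control gave 11.68, 11.70 and 11.60, FL 11.82, 11.81 and 11.87, mutB1 11.85, 11.90 and 11.82, and ΔSAP 11.75, 11.78 and 11.75. The control arrays were the lowest, and the largest difference between line means was 1.14-fold. FL exceeded control by 0.17 ± 0.04 (limma adjusted p = 0.00708) and mutB1 exceeded control by 0.19 ± 0.04 (limma adjusted p = 0.00543). These calls were marginal: over 21 alternative settings, 7 kept the FL call (adjusted p from 0.00075 to 0.0777) and 12 kept the mutB1 call (adjusted p from 0.0005 to 0.0433). With an array left out, the FL call remained without mutB1 replicate 2 or 3 and was lost in the other fits, and the mutB1 call was lost without control replicate 1 or 3, FL replicate 1 or any mutB1 replicate. FL and mutB1 differed by -0.02 (95% interval -0.11 to 0.07).

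Car2, the widespread and fast cytosolic enzyme, had array values from 3.70 to 4.09, with a median of 3.96. Its mean over all arrays was under 4, the minimum of the series' own filter, which the other 7 members passed. Car8, the member without catalytic activity, lay between 4.37 and 4.66. Its control arrays lay above those of every other line, and the control mean exceeded FL by 1.14-fold (limma adjusted p = 0.0266) and ΔSAP by 1.13-fold (limma adjusted p = 0.0362), neither past the threshold. Median centring of the arrays brought FL against control past it (-0.24, limma adjusted p = 0.00814). Car14, a membrane enzyme known from brain and eye, lay between 5.64 and 5.91, at the edge of the low level. For Car2 and Car14 the lines overlapped in every comparison, with limma adjusted p between 0.385 and 0.944. The 95% intervals of the Car2 differences stayed within -0.33 to 0.25 and those of Car14 within -0.20 to 0.26. At signals this near background these values do not show that the RNA was level.

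FL against mutB1 is a comparison named in the series design text, between lines taken to differ in the B1 region. Mkl1 RNA differed too (12.08 in FL, 11.29 in mutB1), and these differences cannot be told apart here. Of the 6 tested members, 2 passed an adjusted p of 0.01 in limma, against 17.8% of all probe sets. Both, Car5b and Car12, were higher in FL, as were 8.82% of all probe sets, while 9% were lower. Both also met the filters of the series design (adjusted p of 0.01, 2-fold, mean of 4), which 1.6% of probe sets met. The arrays of the lines did not overlap for 2 of 6 members, against 40.2% of all probe sets. Car5b met the fold filter by a narrow margin and was under 2-fold after median centring of the arrays, without FL replicate 3 and without mutB1 replicate 3, which left 1 member. The median change of the 6 members was 0.02, beside -0.0039 over all probe sets.

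FL against ΔSAP, also named in that text, is between lines taken to differ in the SAP domain (Mkl1 at 12.08 in FL and 11.92 in ΔSAP). Among all probe sets 11.4% passed, 5.73% higher and 5.7% lower in FL. Of the 6 members 2 passed, Car12 higher and Car5b lower in FL. Both differences were under 2-fold, and 0 of 6 met the filters of the design (0.503% of probe sets). Arrays did not overlap for 3 of 6 (32.1%), the further one being Car13. The 2 comparisons share the FL arrays. Set side by side, FL minus mutB1 and FL minus ΔSAP were 1.50 and 0.68 for Car12, and 2.47 and 1.79 for Car6, whose mutB1 mean was low. For Car9 they were 1.34 and -1.29, and for Car5b 1.00 and -0.36. Thus FL was the highest line for Car6 and Car12 and an intermediate line for Car9 and Car5b. The direct comparison of ΔSAP with mutB1 called 2 of 6 members (15.1% of all probe sets), Car5b and Car12 (0.82 ± 0.06, limma adjusted p = 5.09e-06), both higher in ΔSAP. Of these, Car5b met the filters of the design (1.42% of probe sets), and arrays did not overlap for 3 of 6 (38.2%).

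Against the control line, FL had 2 of 6 members past the threshold (20% of all probe sets), Car12 and the marginal Car13. For mutB1, 3 of 6 passed (12.7% of all probe sets): Car5b and Car12 lower and Car13 higher. For ΔSAP it was 1 of 6, Car5b (14.8% of all probe sets). The filters of the design were met by 0 of 6 in FL (1.83% of probe sets) and 0 of 6 in ΔSAP (1.34%). In mutB1 they were met by 1 of 6, Car5b (1.21%), which missed them without control replicate 3 or mutB1 replicate 3. Arrays did not overlap with control for 3 of 6 members in FL (39.7% of probe sets), 4 of 6 in mutB1 (33.6%) and 4 of 6 in ΔSAP (36.3%), Car8 being among them each time.

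**Figure D3:**
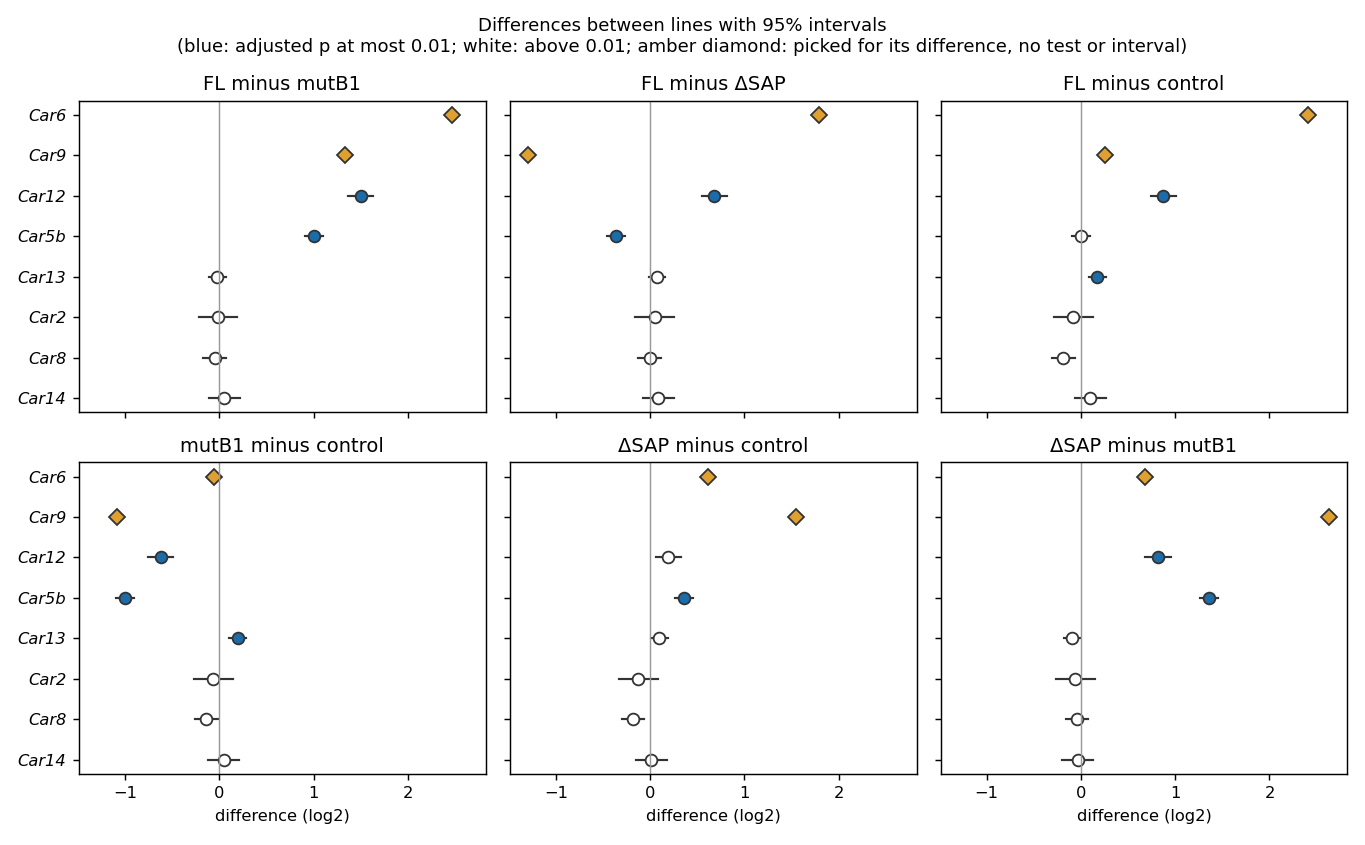
Differences between line means on the log2 scale in 6 comparisons, with 95% intervals from the fit of 12 arrays for the tested members. Blue points passed an adjusted p of 0.01, white points did not, and amber diamonds are Car6 and Car9, which were not tested. Car9 and Car5b change side between FL minus mutB1 and FL minus ΔSAP, and Car6 and Car12 do not.

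Of 8 further carbonic anhydrase genes, 4 were low in every line (Car1, Car3, Car4 and Car10), and 2 passed in FL against mutB1 (Car7 and Car15), both higher in FL, where 17.8% of all probe sets passed in either direction. Car1, a red-cell enzyme, lay between 4.73 and 4.87, Car3 of muscle and fat between 4.37 and 4.46, the lipid-anchored Car4 between 4.71 and 4.81 and the inactive Car10 between 5.05 and 5.16. Car7, a cytosolic enzyme of neurons, stood at 7.42 ± 0.08 in FL (SD, n = 3), 7.09 ± 0.10 in ΔSAP and 6.80 ± 0.13 in control, with mutB1 between the latter pair. It exceeded mutB1 by 0.42 ± 0.07 (SE, limma adjusted p = 0.00147). Against ΔSAP it was 0.34 ± 0.07 higher (limma adjusted p = 0.00875), the 1 call of the 8 in that comparison (11.4% of all probe sets), which was kept without control replicate 1, control replicate 3 or ΔSAP replicate 2 and lost without any other array. Car15, a membrane-linked enzyme of kidney, was 0.50 ± 0.06 higher in FL than in mutB1 cells (limma adjusted p = 0.00011). ΔSAP also exceeded mutB1, by 0.32 ± 0.06 (limma adjusted p = 0.00235). The mitochondrial Car5a and the inactive Car11 ranged over the lines from 5.94 to 6.04 and from 6.53 to 6.64. Ptprg and Ptprz1, receptor phosphatases with a carbonic anhydrase-like domain, were low in every line and 0 of 2 passed in FL against mutB1 or ΔSAP, with 0 of 2 at an unadjusted p under 0.05 in limma.

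Carbonic anhydrases work with transporters of bicarbonate and acid, and both kinds were examined. Of 14 measured genes of the bicarbonate and chloride-bicarbonate transporter families, 5 rose and 0 fell from mutB1 to FL. From ΔSAP to FL, 1 rose and 3 fell. Slc4a11, which does not carry bicarbonate, is counted among the 5 and among the 3. Among all probe sets, 8.82% rose and 9% fell in the first comparison and 5.73% rose and 5.7% fell in the second. Without an array these counts of 5 and 4 were 4 to 6 and 3 to 4, and with only the arrays compared the second was 1. The sodium-bicarbonate cotransporter Slc4a4 stood at 6.61 ± 0.05 in mutB1 (SD, n = 3), 6.39 ± 0.07 in control, 7.30 ± 0.22 in FL and 7.74 ± 0.05 in ΔSAP. FL exceeded mutB1 by 0.69 ± 0.09 (SE, limma adjusted p = 0.000269), and the change from ΔSAP to FL was -0.45 ± 0.09 (limma adjusted p = 0.00664). Slc4a8, a sodium-driven chloride-bicarbonate exchanger, exceeded its mutB1 level in FL by 0.83 ± 0.08 (limma adjusted p = 2.4e-05), and its difference between FL and ΔSAP was -0.12 (limma adjusted p = 0.397). Slc4a5, another cotransporter, was higher in FL by 0.59 ± 0.13 against mutB1 (limma adjusted p = 0.00625) and by 0.78 ± 0.13 against ΔSAP (limma adjusted p = 0.00177), where its means were low. Slc4a11, a family member that carries protons rather than bicarbonate, had the largest change of the list against ΔSAP, at 10.22 ± 0.09 in ΔSAP and 8.59 ± 0.03 in FL, a difference of -1.63 ± 0.06 (limma adjusted p = 1.48e-07).

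Of 14 genes of sodium-proton exchange and lactate-proton transport, 2 rose and 2 fell from mutB1 to FL (8.82% and 9% of all probe sets). Of these measured genes, Slc9a3r1, Bsg and Emb encode partner proteins of transporters rather than transporters. Slc9a8, an exchanger of the Golgi, was lower in FL (-0.44 ± 0.06, limma adjusted p = 0.000172), as was Slc9a9 (-0.28 ± 0.06, limma adjusted p = 0.00337). The lactate transporter Slc16a1 was higher (0.30 ± 0.04, limma adjusted p = 0.000108). The other gene that rose was Slc9a3r1 (0.27 ± 0.04, limma adjusted p = 0.000576). In FL against ΔSAP 0 of 14 passed in limma (11.4% of all probe sets), with 2 of 14 at an unadjusted p under 0.05 and 1 of 14 passing with a variance trend in the same tool.

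Because Car9 is known as a HIF target, genes of the hypoxia response were set beside it. Of 24 measured hypoxia targets, 7 rose and 6 fell from mutB1 to FL (8.82% and 9% of all probe sets), with a median of -0.02. In FL against ΔSAP, 5 were higher and 7 lower (5.73% and 5.7% of all probe sets), with a median of -0.01. In ΔSAP against control, 0 were higher and 7 lower (14.8% of all probe sets passed in either direction), with a median of -0.06. In mutB1 against control, 1 was higher and 4 lower (12.7%), with a median of -0.06. In FL against control, 4 were higher and 8 lower (20%), with a median of -0.10. In ΔSAP against mutB1, 6 were higher and 5 lower (15.1%), with a median of -0.0083. The vasodilator gene Adm was higher in FL by 1.80 ± 0.11 against mutB1 (limma adjusted p = 1.15e-06) and by 0.94 ± 0.11 against ΔSAP (limma adjusted p = 0.000243). The glycolytic Aldoc changed by -1.06 ± 0.06 and -0.59 ± 0.06 in the same comparisons (limma adjusted p = 4.02e-07 and 6.29e-05). Pdk1, a kinase that holds back pyruvate oxidation, was lower in FL against mutB1 (-0.55 ± 0.05, limma adjusted p = 1.88e-05), and the collagen hydroxylase P4ha2 was higher in FL by 0.79 ± 0.04 against ΔSAP (limma adjusted p = 4.62e-07).

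Vegfa, the angiogenic factor, stood at 10.52 in FL, 10.84 in mutB1, 10.62 in ΔSAP and 10.85 in control, and fell by 0.32 on the log2 scale in FL against mutB1 (limma adjusted p = 0.0002). The glucose transporter Slc2a1 was higher in FL by 0.16 against mutB1 (limma adjusted p = 0.00634) and at 12.56 in both FL and ΔSAP. Lactate dehydrogenase Ldha was higher in FL by 0.14 against mutB1 (limma adjusted p = 0.00752), and its difference from ΔSAP was 0.06 (limma adjusted p = 0.22). Hif1a, the HIF subunit stabilised by hypoxia, was higher in FL by 0.16 ± 0.03 against mutB1 (limma adjusted p = 0.00403) and at 11.88 in both FL and ΔSAP.

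Of 9 HIF pathway factors, 1 rose and 3 fell from mutB1 to FL (8.82% and 9% of all probe sets), and 1 rose and 0 fell from ΔSAP to FL (5.73% and 5.7%). Lower were the HIF hydroxylases Egln3 (-0.60 ± 0.05, limma adjusted p = 9.95e-06) and Egln2 (-0.26 ± 0.05, limma adjusted p = 0.00469). Vhl, which marks HIF for degradation, was lower too (-0.26 ± 0.05, limma adjusted p = 0.00286). Whether HIF activity differed between the lines was not tested. Vhl was the call against ΔSAP, 0.25 ± 0.05 higher in FL (limma adjusted p = 0.00575). The count of 4 against mutB1 was 1 without FL replicate 1, FL replicate 2 or mutB1 replicate 1 and 2 without mutB1 replicate 3. Vhl also lost its call against ΔSAP without control replicate 3, FL replicates 1 or 3, mutB1 replicate 1 or any ΔSAP replicate. The 12 hypoxia targets called against ΔSAP were 7 without FL replicate 2, ΔSAP replicate 2 or ΔSAP replicate 3.

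**Figure D4:**
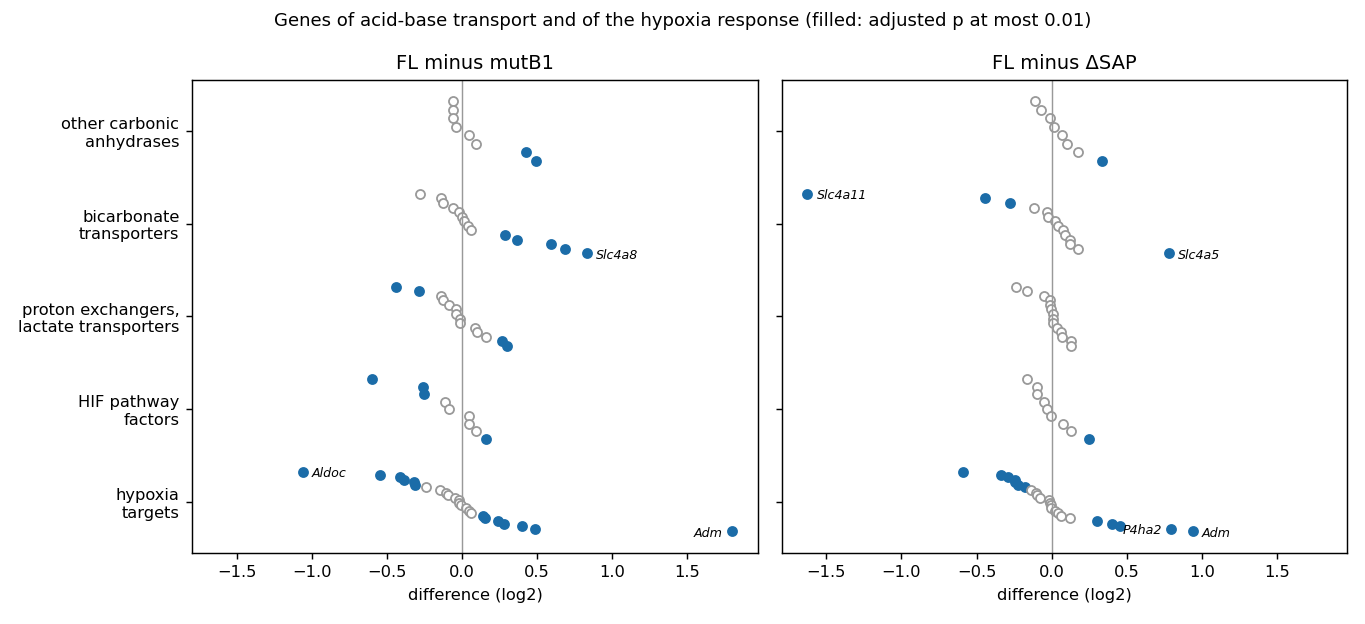
Each point is 1 gene of 5 lists, placed by its log2 difference in FL minus mutB1 (left) and FL minus ΔSAP (right), with filled points past an adjusted p of 0.01. Points within a list are stacked in order of value, and genes past 0.75 are named. Most genes lie near 0, with Slc4a11 at -1.63 against ΔSAP and Adm at 1.80 against mutB1 farthest out.

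The genes with the pattern most like each varying member were found by Pearson correlation over the 12 arrays, among 900 genes with a range of line means of at least 1. As the arrays are 4 lines with 3 arrays each, such a value mainly compares the line means, and it is given as a description. For Car9 they were Lypd3 (r = 0.994), Lad1 (0.993) and Unc13b (0.992). Lypd3, a surface protein of squamous epithelia, stood at 7.27 in mutB1, 8.74 in control, 8.90 in FL and 10.33 in ΔSAP. For Car5b they were Perp (0.998), a desmosomal p53 target, Man1a (0.995) and Urah (0.995). Perp ranged from 6.84 in mutB1 to 10.25 in ΔSAP.

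Car6 was most like Chka (0.986), a choline kinase, Adh7 (0.978) and the endoplasmic reticulum gene Sdf2l1 (0.977). Chka stood at 10.76 in FL and between 9.75 and 10.07 in the other lines. Car12 was most like the chemokine Cxcl5 (0.990), the thioesterase Acot2 (0.988) and the kinase Plk2 (0.988). Cxcl5 was at 8.81 in FL, 7.71 in control, 7.79 in ΔSAP and 6.99 in mutB1, the order of lines of Car12.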

How the data were processed

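Per the labels' protocols, 100 ng of total RNA was amplified and labelled for each Affymetrix Mouse Gene 1.0 ST array. The deposited log2 values are RMA values, which include quantile normalization between arrays, calculated by the authors in the affy package of Bioconductor 2.4, per the series design text. The submitters' processing notes name R 2.10.0. The genome build is not stated in the sources used here. Of 34760 probe sets, 21640 had 1 gene symbol in the platform annotation of 2016, 1321 several and 11799 none. Symbols were updated through Entrez identifiers to RefSeq (21553 matched).

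Lines were compared with limma 3.58.1 in R 4.3.3 (lmFit, eBayes) in a single fit of 12 arrays with 4 line means, Benjamini-Hochberg adjusted over all probe sets, threshold 0.01. limma was tested on simulated data first. The named genes were all members, every other carbonic anhydrase, and per further list the up to 3 largest called changes in FL against mutB1 and FL against ΔSAP, plus Hif1a, Vegfa, Slc2a1 and Ldha. The members and lists were chosen with earlier results of these data known. Markers named as examples, such as Cdh1 and Pdgfrb, genes named as lost calls, and Slc9a3r1 were chosen after their values were seen. Each line had 3 arrays, which limits the precision. The 21 alternatives were median centring, further quantile normalization, a variance trend, a robust variance, a replicate block, arrays of the compared lines only, adjustment over brighter probe sets (minimum mean 4 or 6), the mean of a gene's probe sets, and each array left out.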

Additional observations from a re-analysis of the deposited data

How the results depend on the processing

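Over the 21 alternatives, the calls of Car5b and Car12 in their 10 called comparisons stayed past the threshold, with Car12 at 1.44 to 1.54 and Car5b at 0.96 to 1.03 in FL minus mutB1. The values of Car6 and Car9 moved by less than the spread between arrays. No called value changed sign, and 23 uncalled ones did. The members past 2-fold in FL against mutB1 were 1 after median centring and 1 to 2 without an array, and in mutB1 against control 0 to 1 without an array. With FL against control, the count was 1 after quantile normalization, with the replicate block and with only the arrays compared, and 1 to 2 without an array, each time through Car13. After median centring it was 2, with Car13 lost (adjusted p = 0.0777) and Car8 gained (adjusted p = 0.00814). Adjustment over probe sets with a mean of at least 6 gave no value for Car2, Car8 and Car14, nor did a minimum of 4 for Car2, and the mean of a gene's probe sets equals the main value where it has 1. For the counts of related genes, added after seeing the data, the other carbonic anhydrases were 1 after median centring in FL against mutB1. In FL against ΔSAP they were 0 after median centring, quantile normalization, the replicate block and with only the arrays compared, and 0 to 1 without an array. The list of bicarbonate transporter families gave 1 against ΔSAP with only the arrays compared, and 3 to 4 without an array. The list of proton and lactate transport gave 1 against ΔSAP after quantile normalization, with a variance trend and over probe sets with a mean of at least 6. Without an array it gave 0 to 1. HIF factors were 1 against mutB1 with only the arrays compared (1 to 4 without an array), and against ΔSAP 0 after median centring, with the replicate block and with only the arrays compared (0 to 1 without an array). Hypoxia targets were 6 against ΔSAP with only the arrays compared and 7 to 12 without an array. A fit with fewer arrays has fewer degrees of freedom, and the causes of the other shifts were not tested. Replicate numbers are not stated to pair arrays: of 18 same-numbered pairs across lines, 2 correlated above 0.1 in their deviations from line means, and 3 of 12 arrays were closest to their own number. With the replicate block 1 member passed in FL against control and 2 in FL against mutB1. Low signal limits Car2, Car8, Car14 and, outside FL, Car6.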

Other observations

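On the chromosome, Car13, Car1, Car3 and Car2 are neighbours on chromosome 3 with 0 protein-coding genes between adjacent members, in the RefSeq annotation of GRCm38.p6. Of this cluster, Car13 was above the low level in every line (line means 11.66 to 11.86), and Car1, Car3 and Car2 were low in every line. Car9 and Unc13b, one of the 3 genes with the pattern most like it, lie on chromosome 4 with 8 protein-coding genes between them. Lypd3 and Lad1, the other two, are on chromosomes 7 and 1.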
